A study of Mus musculus with 6 samples.

Results

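Potassium channel subunit genes were followed through RNA of mouse lung endothelial cells, the cells that line the blood vessels of the lung. Members were all genes whose symbol begins with Kcn, continues with lower-case letters and ends in a number; 92 of the 24520 genes in the tables met this rule, all 92 that the annotation holds, and they fell into 20 subfamilies. The rule used symbols only and no measured value, though it was chosen with earlier results of these data known. Libraries of 2 kinds were compared: 3 labelled WT (genotype wt) and 3 labelled KO (genotype ko, for the DNA methyltransferase gene Dnmt3a), all from sorted lung endothelium. The knockout allele, the promoter of any Cre driver, the age of the mice, the gate of the sort and whether each library came from its own animal are details that the sources used here do not give, so p-values measure the spread between these libraries, which may be technical in part.

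Potassium channels let potassium leave the cell and so hold the membrane at a negative voltage. In endothelium this voltage sets the driving force for calcium entry, and hyperpolarisation can pass to the neighbouring muscle and relax the vessel. The pore is built by voltage-gated, calcium-activated, inwardly rectifying or tandem-pore (K2P) subunits, and auxiliary subunits change how a pore opens or where it is placed. By these roles the members comprised 40 voltage-gated pore-forming genes, 8 genes of the calcium- and sodium-activated class and its relatives, 15 inward rectifiers, 14 tandem-pore genes and 15 auxiliary genes.

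The libraries held 28136194 to 39999172 estimated counts. The targeted gene ran against the labels. Dnmt3a (chromosome 12, 3806007 to 3914443, plus strand, mm10) read 6.38, 6.11 and 5.02 TPM under WT and 31.9, 27.9 and 28.4 TPM under KO, and it was higher in all 3 libraries labelled KO (log2 fold change 2.22, SE 0.11; adjusted p = 0.00157 by edgeR). These values are summed over the gene and do not show which exons were read. The reason for the rise under KO was not tested, nor was the assignment of the labels. The groups are therefore called by their labels, and higher or lower always means under KO compared with under WT. Where 3 values stand under a label, they belong to replicates 1, 2 and 3 in that order. The endothelial markers were abundant in every library: all 10 were detected, summing to 12520 to 15210 CPM under WT and 12400 to 14170 CPM under KO. Epithelial RNA differed widely within both labels, the 9 alveolar type 2 markers summing to 332 to 9393 CPM under WT and 771 to 3632 CPM under KO. Fibroblast markers moved with the labels, summing to 141 to 198 CPM under WT and 291 to 429 CPM under KO. Of these 8 markers 7 had positive differences, beside 7470 of all 14667 tested genes, and none was at 0 in every library. By edgeR 5 of the 8 were higher at an unadjusted p under 0.05, beside 6.88% of all tested genes. An edgeR adjusted p under 0.05 was reached by 1 marker (0.0223), beside 5 of all tested genes. In these bulk libraries, more cells of a type and more RNA per cell cannot be told apart. Xist was at 545 and 714 CPM in replicate 1 of WT and KO and at most 1.98 CPM elsewhere. From this gene alone, replicate 1 of each label was read as female and the others as male.

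Because the study concerns an enzyme that methylates CpG sites, the promoter windows of 3 members are shown with each CpG in capitals: Kcne3 and Kcng4, which are among the members with the clearest separation of the labels below, and Kcnh6, the most abundant member. They are RefSeq sequences on GRCm38.p6, up to 250 bases before an annotated start, and bases that the gene annotation places in an exon are left out. Kcne3 has 2 starts, and the window of the second (chr7:100178433-100178682, plus strand) lies within the span of the gene but outside any annotated exon. The Kcng4 window is chr8:119635681-119635930 on the minus strand, and the Kcnh6 window is chr11:106007898-106008123 on the plus strand.
Kcne3: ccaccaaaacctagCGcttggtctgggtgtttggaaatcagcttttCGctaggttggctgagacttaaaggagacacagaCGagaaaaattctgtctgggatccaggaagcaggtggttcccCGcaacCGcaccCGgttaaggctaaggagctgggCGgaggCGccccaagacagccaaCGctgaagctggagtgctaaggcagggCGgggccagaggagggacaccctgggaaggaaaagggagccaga
Kcng4: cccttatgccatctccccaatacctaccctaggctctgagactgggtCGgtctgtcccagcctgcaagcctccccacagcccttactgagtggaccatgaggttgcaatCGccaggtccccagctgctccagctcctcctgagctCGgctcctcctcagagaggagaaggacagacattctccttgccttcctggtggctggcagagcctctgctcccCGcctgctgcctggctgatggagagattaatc
Kcnh6: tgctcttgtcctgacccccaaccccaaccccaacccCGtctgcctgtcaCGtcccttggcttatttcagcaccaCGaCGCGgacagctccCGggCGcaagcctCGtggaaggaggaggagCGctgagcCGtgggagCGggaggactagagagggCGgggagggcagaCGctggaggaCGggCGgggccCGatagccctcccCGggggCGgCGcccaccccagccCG
The second Kcne3 window held 10 CpG, more than 62.2% of all 32851 windows of that length, and the window of the first start held 3, more than 29.0%. The full Kcng4 window held 4 CpG, more than 37.8% of windows, and the full Kcnh6 window 21, more than 83.7%. At least 1 CpG was present in 92.1% of all windows, with a median of 6, and the median over the 92 windows of the 67 members that have one was 7. Methylation itself was not analysed here.

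Kcnh6 and Kcnq1 made up most of the pore-forming channel RNA in every library. Levels are compared between genes in TPM, which accounts for transcript length. Kcnh6 (ENSMUSG00000001901, chromosome 11, 106008124 to 106034549, plus strand) encodes a voltage-gated channel of the ether-a-go-go-related family. It read 270, 255 and 203 TPM under WT and 192, 247 and 174 TPM under KO. It took 49.6% to 65.6% of the TPM summed over the pore-forming members of a library. Its exons overlapped no other annotated gene. The nearest protein-coding genes, Ace3 at 2680 bp and Dcaf7 at 2322 bp, averaged 38.7 and 30.0 TPM, well under Kcnh6 itself. Ace, a further gene of this neighbourhood, averaged 951 TPM, above the Kcnh6 mean of 223 TPM. Whether RNA from any of these genes adds to the Kcnh6 value was not tested. Kcnq1 (ENSMUSG00000009545, chromosome 7, 143106362 to 143427042, plus strand), the voltage-gated channel that works with KCNE subunits in epithelia and heart, read 69.8, 80.7 and 69.6 TPM under WT and 66.2, 67.6 and 78.2 TPM under KO. It gave 17.0% to 22.3% of the pore-forming TPM, and its levels lay below those of Kcnh6 in every library. The antisense RNA Kcnq1ot1 overlaps 3.0% of the Kcnq1 exon length, and reads there cannot be assigned to a strand.

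Below these came Kcnk5, Kcnh1 and Kcnk6, with mean levels of 21.0, 17.4 and 10.4 TPM. Kcnk5, an alkaline-activated tandem-pore channel, read 9.15, 26.1 and 7.01 TPM under WT and 20.8, 16.3 and 46.8 TPM under KO. Its range took in all 6 values of Kcnh1, so the order of these 2 genes was not separated from their spread. Kcnh1, an ether-a-go-go channel, read 19.2, 17.5 and 14.1 TPM under WT and 24.1, 13.2 and 16.0 TPM under KO. Kcnk6, a tandem-pore channel, was the steadiest of the 3, reading 8.91, 10.0 and 9.34 TPM under WT and 9.60, 12.0 and 12.5 TPM under KO. Together with Kcnh6 and Kcnq1 these genes made up 88.9% to 93.3% of the pore-forming TPM of each library.

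**Figure D1:**
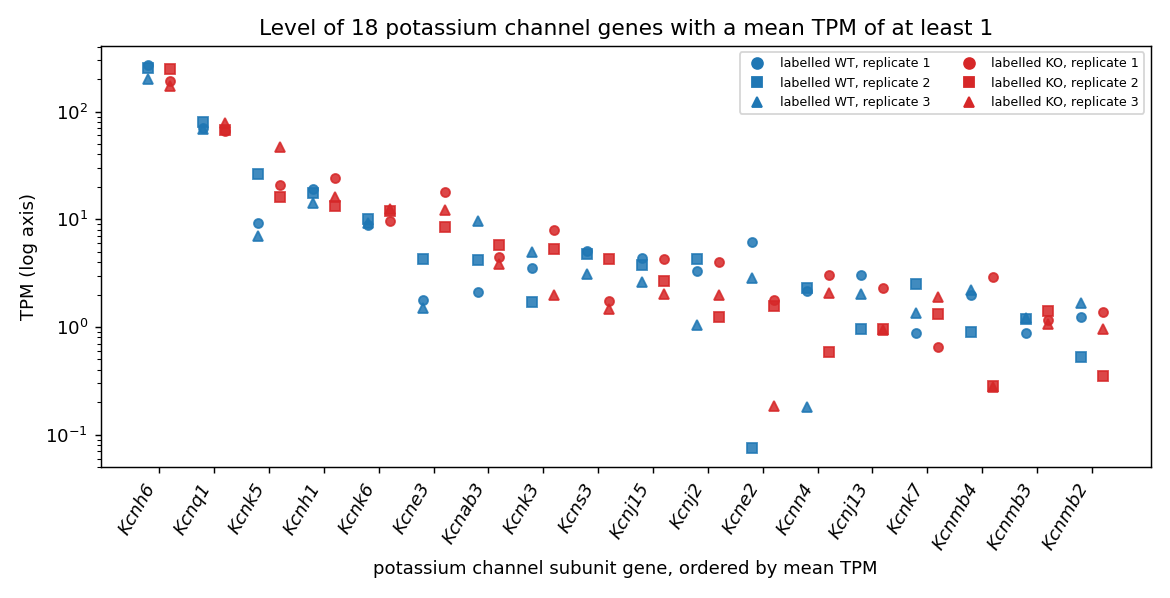
TPM of each library (log axis) for 18 of the 19 members with a mean TPM of at least 1, ordered by their mean, with blue for libraries labelled WT and red for those labelled KO and a symbol for each replicate number. Kcnh6 and Kcnq1 stand above all others, Kcne3 is the sixth gene and separates the labels, and Kcne2 spans 0.0749 to 6.22 TPM.

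The remaining members were scarce. Only 19 of the 92 had a mean of at least 1 TPM, and 14 had no count in any library: Kcna7, Kcna10, Kcng1, Kcnh5 and Kcnq3 among the voltage-gated genes, Kcnj3, Kcnj6 and Kcnj14 among the inward rectifiers, Kcnk12, Kcnk15, Kcnk16 and Kcnk18 among the tandem-pore genes, and the auxiliary Kcne1 and Kcnip1. A count of 0 allows up to 3 counts, or 0.0796 to 0.102 CPM per library, for counting error only. A further 26 had some counts, at most 35 in a library, and did not pass the expression filter. Kcnn3, one of the calcium-activated channels known for endothelium-dependent hyperpolarisation, was among them with 9, 0 and 5 counts under WT and 22, 18 and 9 counts under KO. Kcnma1, the pore of the large-conductance calcium-activated channel, passed the filter at 17 to 24 counts per library, a mean of 0.0505 TPM. Of the beta subunits that bind this pore, Kcnmb1, Kcnmb2, Kcnmb3 and Kcnmb4 had higher means, at 0.995, 1.03, 1.16 and 1.43 TPM.

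The comparison of the labels asks which channel genes differ between the genotypes. None of the 52 tested members passed at an edgeR adjusted p under 0.05, where 5 of 14667 tested genes (0.0341%) did. At an unadjusted p under 0.05 there were 3 members, Kcne3 and Kcng4 among them, all higher in the libraries labelled KO, against 12.6% of all tested genes and 6.88% on that side. The members' count on the higher side, 3 of 52, is near this background. On the lower side there were 0 members, beside 846 of the 14667 tested genes. Groups did not overlap for 5 members, 3 higher and 2 lower, against 20.3% of all tested genes (10.9% higher and 9.42% lower). DESeq2, an alternative tool, called 2 members, Kcne3 among them, where it called 389 of 14667 genes (2.65%). Over the tested members 24 log2 fold changes were positive and 28 negative, with a median of -0.03, beside 7470 positive, 7197 negative and a median of 0.0086 over all tested genes. The tested members were low in level, with a median of 1.19 CPM against 19.7 CPM over all tested genes, and the median standard error of a log2 fold change was 0.55 over the tested members and 0.22 over all tested genes.

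**Figure D2:**
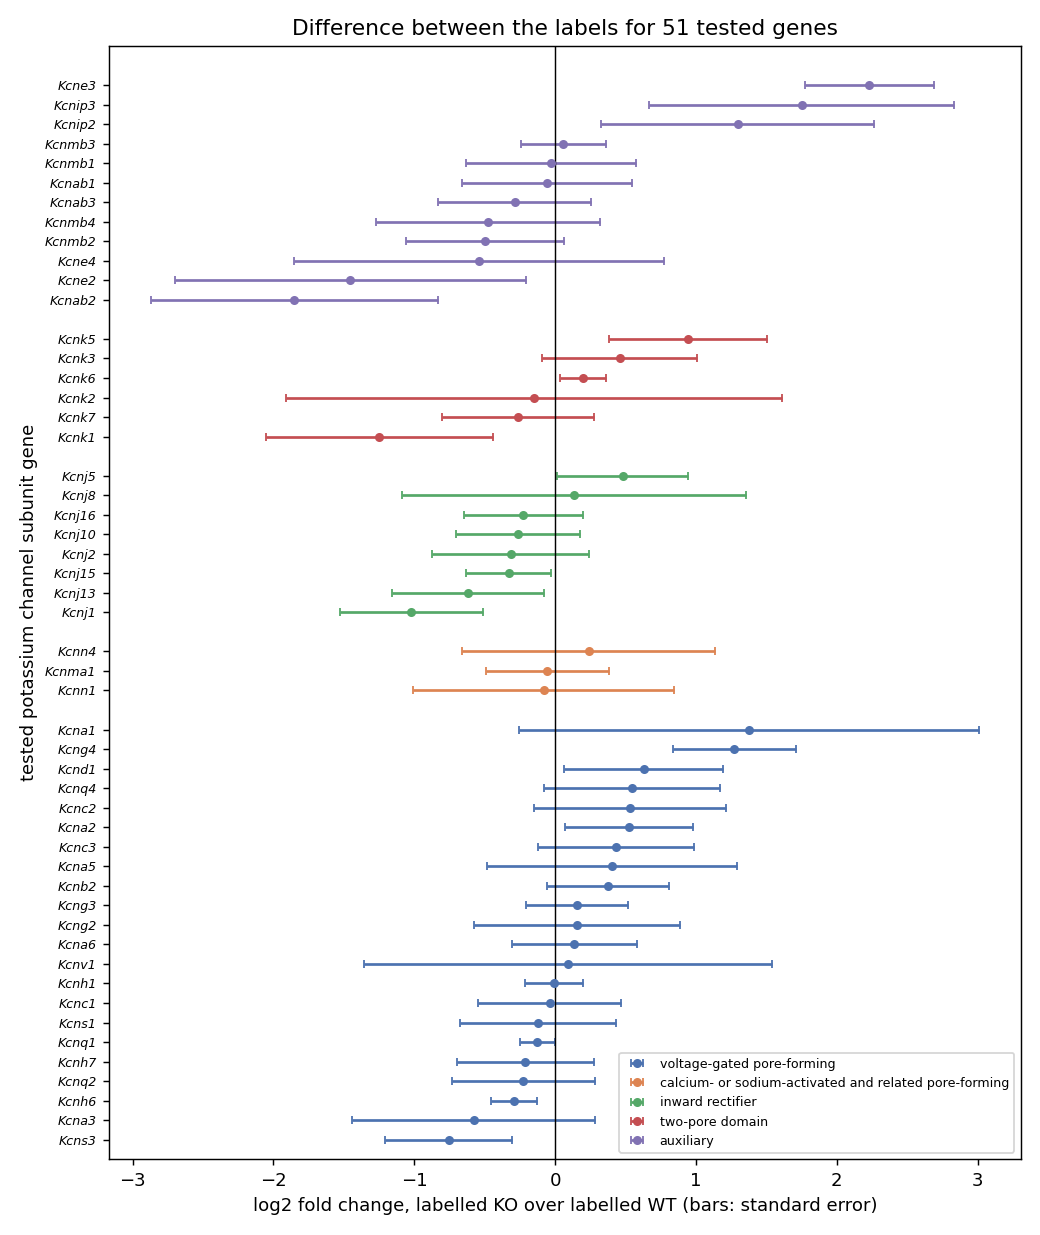
Log2 fold change of libraries labelled KO over those labelled WT for 51 of the 52 tested members, coloured by role and ordered within each role, with the standard error as a bar. Kcne3 at 2.23 and Kcng4 at 1.27 are among several genes whose standard error bars do not reach 0, and neither passed by edgeR. The abundant Kcnq1 and Kcnh6 had smaller differences, -0.13 and -0.29.

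Among the auxiliary subunits, Kcne3 had the largest positive difference of any tested member. Kcne3 (ENSMUSG00000035165, chromosome 7, 100176502 to 100184869, plus strand) encodes a single-span subunit that holds Kcnq1 channels open. It read 47, 74 and 31 counts under WT and 285, 173 and 205 counts under KO. After scaling to depth and the TMM factor, it read 1.43, 2.51 and 0.822 CPM under WT and 9.64, 5.71 and 6.94 CPM under KO. Every library labelled KO lay above every library labelled WT, KO replicate 1 being the highest and WT replicate 3 the lowest. The means were 1.59 ± 0.853 CPM under WT and 7.43 ± 2.01 CPM under KO (mean ± SD over 3 libraries). The log2 fold change was 2.23 (SE 0.46, unadjusted p = 0.00158, edgeR adjusted p = 0.24), which did not pass. DESeq2 gave an adjusted p of 0.00095 for 2.23 (SE 0.48), and over the 18 alternatives the adjusted p ran from 0.00095 to 0.608. Without each library in turn the log2 fold change stayed between 1.92 and 2.72. With the alveolar type 2 score as a covariate it was 2.28 (SE 0.43, edgeR adjusted p = 0.235). The fibroblast markers given above moved with the labels in the same direction as Kcne3, and as Kcng4 below, and their part in these differences was not tested.

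The pore that Kcne3 is known to modulate, Kcnq1, had overlapping groups. Kcnq1 read 112, 128 and 121 CPM under WT and 99.3, 107 and 124 CPM under KO (log2 fold change -0.13 with SE 0.12, edgeR adjusted p = 0.687). In TPM, Kcne3 averaged 2.52 ± 1.52 under WT and 12.9 ± 4.66 under KO, and Kcnq1 averaged 73.4 ± 6.37 and 70.7 ± 6.57 (SD, n = 3 each). The Kcne3 counts that made up 1 TPM, a ratio that follows the length of the isoforms assigned, ran from 16.0 to 25.4 over the libraries after scaling, and the 3 values under KO (17.9 to 21.5) lay inside the range under WT.

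The other KCNE genes had overlapping groups or no count. Kcne2, a subunit of the gastric Kcnq1 channel, read 5.69, 0.0677 and 2.86 CPM under WT and 1.56, 1.42 and 0.169 CPM under KO. The groups overlapped and both spread widely (log2 fold change -1.45 with SE 1.24, edgeR adjusted p = 0.644). Without WT replicate 1 the value was -0.49, without KO replicate 3 it was -0.95, and without WT replicate 2 it was -2.02. Kcne4 was at 0 to 1.41 CPM with overlapping groups, and Kcne1 was at 0 in every library. Ordered from high to low, the libraries ranked the same for Kcne2 and for the alveolar type 2 marker score, the mean log2(CPM + 1) of the 9 markers: WT replicate 1, WT replicate 3, KO replicates 1, 2 and 3, then WT replicate 2. With that score as a covariate the Kcne2 difference was -0.10 (SE 0.56, edgeR adjusted p = 0.959). The part of alveolar type 2 cells in the Kcne2 values was not tested. Kcnk1, a tandem-pore channel at 0.372 to 3.23 CPM, had this library order too, though its lowest 2 libraries both read 0.372 CPM. It was picked after its values were seen, and how many of all tested genes share this order was not counted.

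Of the remaining auxiliary genes, Kcnab2, a cytoplasmic beta subunit of Kv1 channels, read 1.22, 1.49 and 1.91 CPM under WT and 0, 0.66 and 0.609 CPM under KO. The labels did not overlap, with a KO library at 0, and the difference was imprecise (log2 fold change -1.85 with SE 1.02, edgeR adjusted p = 0.475). Kcnab3, a relative, read 3.04, 5.99 and 15.2 CPM under WT and 6.09, 8.29 and 5.52 CPM under KO, so the WT libraries enclosed the KO libraries; the log2 fold change was -0.29, and 0.55 without WT replicate 3. The antisense RNA Kcnab3os overlaps 5.1% of its exon length. Kcnmb3 was at 2.80, 3.76 and 4.22 CPM under WT and at 3.48, 4.39 and 3.35 CPM under KO (replicates 1, 2 and 3) (log2 fold change 0.06 with SE 0.30, edgeR adjusted p = 0.952). Kcnmb4 was at 1.25, 0.643 and 1.30 CPM under WT and at 1.72, 0.297 and 0.271 CPM under KO (replicates 1, 2 and 3), the highest and the lowest library both being labelled KO. Kcnip3, a calcium-binding partner of Kv4 channels, had a log2 fold change of 1.75 (SE 1.09) that rested on KO replicate 2 with 145 counts, against 6 to 45 in the other libraries.

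**Figure D3:**
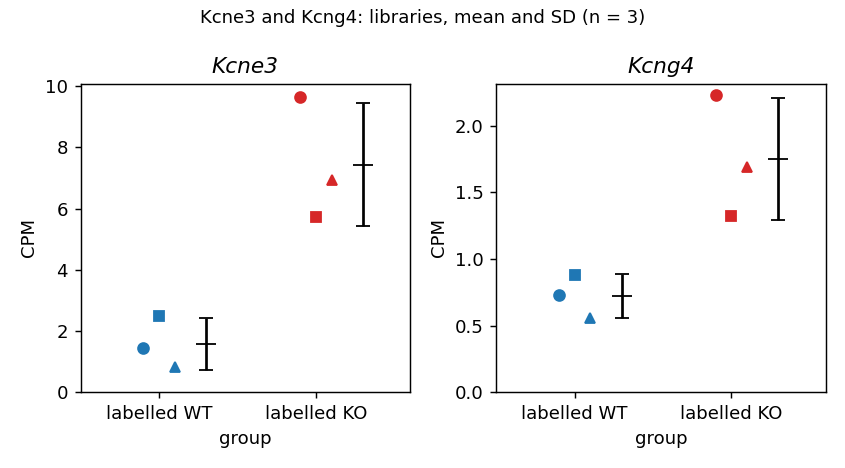
CPM of Kcne3 and Kcng4 by library (points, with a symbol for each replicate number), with the mean and SD of each group of 3 as a black bar; axes start at 0. The libraries labelled KO lie above those labelled WT for both genes, with the highest value in KO replicate 1 for Kcne3 (9.64 CPM) and for Kcng4 (2.23 CPM).

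Among the voltage-gated genes, Kcng4 encodes Kv6.4, a silent subunit that forms no channel alone and works only together with pore subunits of another subfamily. Kcng4 (ENSMUSG00000045246, chromosome 8, 119623854 to 119635680, minus strand) read 24, 26 and 21 counts under WT and 66, 40 and 50 counts under KO. It was at 0.73, 0.88 and 0.557 CPM under WT and at 2.23, 1.32 and 1.69 CPM under KO, without overlap (log2 fold change 1.27, SE 0.44, unadjusted p = 0.0212, edgeR adjusted p = 0.333). Over 16 alternatives that tested it the adjusted p was 0.264 to 0.692, so no tool called it. The other tested silent subunits overlapped between the labels. Kcns3 (Kv9.3) read 5.33, 4.98 and 3.58 CPM under WT and 1.79, 4.59 and 1.83 CPM under KO, KO replicate 2 lying among the WT libraries (log2 fold change -0.76 with SE 0.45, edgeR adjusted p = 0.504). Kcng2, Kcng3, Kcns1 and Kcnv1 overlapped as well, with log2 fold changes of 0.15, 0.16, -0.12 and 0.09.

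The dominant pores overlapped between the labels. Kcnh6 read 645, 602 and 527 CPM under WT and 438, 592 and 421 CPM under KO, KO replicate 2 lying among the WT libraries (log2 fold change -0.29 with SE 0.17, edgeR adjusted p = 0.49). Kcnh1 read 82.2, 74.2 and 65.6 CPM under WT and 96.7, 56.0 and 68.1 CPM under KO, with nearly equal means (log2 fold change -0.0076 with SE 0.20, edgeR adjusted p = 0.991). Of the 8 Kcnh genes only Kcnh1, Kcnh6 and Kcnh7 passed the expression filter. None of the 5 tested Kcna genes had an unadjusted p under 0.05, and Kcna1 rested on KO replicate 2 with 67 counts, against 0 to 17 elsewhere.

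Tandem-pore genes set a background potassium leak. Kcnk5 (ENSMUSG00000023243, chromosome 14, 20140057 to 20181809, minus strand) read 18.2, 51.2 and 15.0 CPM under WT and 38.6, 31.7 and 91.8 CPM under KO. KO replicate 3 was highest and WT replicate 2 next, and the groups overlapped (log2 fold change 0.94 with SE 0.56, edgeR adjusted p = 0.508). Without KO replicate 3 the value was 0.32 and without WT replicate 2 it was 1.70. These 2 libraries had the lowest alveolar type 2 scores, 4.48 and 3.24, and the 2 libraries with the least Kcnk5, WT replicates 1 and 3, had the highest, 7.89 and 6.86. With the score as a covariate the log2 fold change was 0.91 with a standard error of 0.28 (edgeR adjusted p = 0.358), against 0.56 without it. The full library orders of Kcnk5 and of the score were not exact mirrors. The part of epithelial RNA in the Kcnk5 values was not tested. Kcnk6 read 21.6, 24.1 and 24.5 CPM under WT and 21.9, 28.8 and 30.0 CPM under KO (log2 fold change 0.20 with SE 0.16, edgeR adjusted p = 0.623). Kcnk3, an acid-sensitive channel of pulmonary arterial muscle, was at 3.83 to 12.2 CPM under WT and 4.44 to 16.7 CPM under KO.

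**Figure D4:**
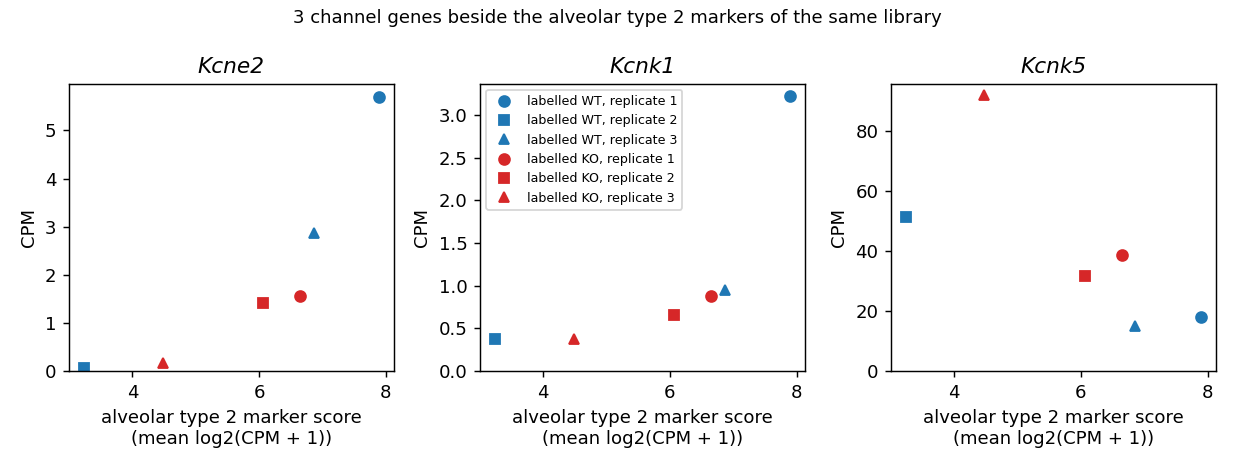
CPM of Kcne2, Kcnk1 and Kcnk5 in each library (vertical axes from 0) against the alveolar type 2 marker score of the same library, with blue for WT and red for KO and a symbol for each replicate number. Kcne2 and Kcnk1 are highest in WT replicate 1, which has the highest score, 7.89, and Kcnk5 is highest in KO replicate 3 and WT replicate 2, which have the lowest.

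Inward rectifiers pass potassium inward more easily than outward and are known in endothelium for sensing flow and external potassium. Kcnj2 (Kir2.1), the member best known in this role, read 10.9, 13.8 and 3.71 CPM under WT and 12.4, 4.03 and 6.47 CPM under KO, with the same wide range under both labels (log2 fold change -0.31 with SE 0.56, edgeR adjusted p = 0.836). Kcnj15 was the most abundant in TPM, a mean of 3.30, and read 12.6, 9.28 and 7.11 CPM under WT and 10.2, 6.80 and 6.03 CPM under KO (log2 fold change -0.33 with SE 0.30, edgeR adjusted p = 0.67). Kcnj1 did not overlap, at 0.426 to 0.61 CPM under WT and 0.198 to 0.304 CPM under KO, from at most 23 counts per library, and did not pass (log2 fold change -1.02 with SE 0.51, edgeR adjusted p = 0.437). Kcnj8, the pore of vascular ATP-sensitive channels and a pericyte gene, read 0.0913, 0.0677 and 2.09 CPM under WT and 0.507, 1.52 and 0.474 CPM under KO. WT replicate 3 decided its value, 0.14 in all libraries and up to 3.32 over the alternatives. In that library the 10 pericyte and smooth muscle markers summed to 491 CPM, against 347 and 118 CPM in WT replicates 1 and 2. The sums were 588, 529 and 129 CPM in KO replicates 1, 2 and 3. The libraries did not rank alike, KO replicate 1 having the highest sum with 0.507 CPM of Kcnj8. The part of these cells in the Kcnj8 values was not tested.

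Of the calcium-activated class only Kcnn1, Kcnn4 and Kcnma1 were tested. Kcnn4, the intermediate-conductance channel of endothelial hyperpolarisation, read 2.40, 2.57 and 0.212 CPM under WT and 3.14, 0.66 and 2.30 CPM under KO. KO replicate 2 and WT replicate 3 were low and the groups overlapped (log2 fold change 0.24 with SE 0.90, edgeR adjusted p = 0.932). Kcnma1 was at 0.583 to 0.73 CPM under WT and 0.561 to 0.711 CPM under KO.

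Other genes of potassium transport were read from lists of partners. No partner gene passed by edgeR. Of 5 tested auxiliary subunits outside the symbol rule 1 had an unadjusted p under 0.05, of 11 pump and cotransporter genes 3 did, of 21 calcium entry and release channels 2, of 16 other channels 2 and of 13 regulators 2. These counts stand beside the 12.6% of all tested genes. The most abundant sodium-potassium pump subunit was Atp1b3, at 98.0 ± 25.3 TPM under WT and 144 ± 28.5 TPM under KO (SD, n = 3 each; log2 fold change 0.48, SE 0.20, edgeR adjusted p = 0.385). Fxyd5, a pump regulator, had a log2 fold change of -0.27 (SE 0.19). Piezo1, a calcium-permeable channel opened by shear, was at 65.5 ± 4.62 TPM under WT and 76.8 ± 9.39 TPM under KO (log2 fold change 0.18, SE 0.12), and Piezo2, its relative, had a log2 fold change of 0.06 (SE 0.20). Lrrc8a, the core of the volume-regulated anion channel, and Ano6, a calcium-activated scramblase and channel, differed by 0.06 (SE 0.12) and 0.02 (SE 0.16) on the log2 scale. Cav1, the caveolar coat protein, and Sgk1, a kinase that acts on ion channels, differed by -0.15 (SE 0.19) and -0.93 (SE 0.35) on the log2 scale, Sgk1 with an edgeR adjusted p of 0.353 and overlapping groups. WT replicate 3 held 4388 CPM of Sgk1, against 1633 and 2275 CPM in the other WT libraries, and without it the Sgk1 value was -0.43. Kcnrg and Lrrc38, the most abundant auxiliary genes outside the symbol rule, differed by -0.82 (SE 0.62) and 0.43 (SE 0.42) on the log2 scale.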

How the data were processed

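Per the labels' protocols, cDNA was made with the SMARTer Ultra Low kit and read in pairs. The submitters' processing notes name kallisto, without a version, and the build mm10. The authors deposited estimated counts per gene, in whole numbers (rounding changed 0), and TPM values, whose columns sum to 875864 to 885609; no source used here gives the annotation behind them. Symbols and positions came from GENCODE M21 (mm10) for 24298 of 24520 identifiers.

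Labels were compared by the quasi-likelihood test of edgeR 4.0.16 (R 4.3.3) with TMM and filterByExpr on all libraries, without a covariate, adjusted over 14667 genes by Benjamini-Hochberg at 0.05; SE is the log2 fold change over the square root of F. The code was also run on counts simulated gene by gene, which cannot speak to differences in cell content between libraries. Alternatives used DESeq2 1.42.0, limma 3.58.1 on log2(TPM + 1) and log2(TPM + 0.1), other factors and filters, a replicate block, covariates and leaving out each library. Per-library values are given for Kcne3, members with an unadjusted p under 0.05, members without overlap and a mean TPM of at least 1, and the 2 most abundant members of a subfamily from 1 TPM; Kcnab2, Kcnip3, Kcnj8, Kcnn3, the genes next to Kcnh6 and other values outside this rule were chosen after they were seen. For partner lists, members past the threshold and the 2 of highest mean TPM are named. The values of 1 member are not reported here, though counts over the members include it. Members and lists were chosen with earlier results of these data known. Within a label, libraries differed beyond sampling noise. Floors cover counting error only, since amplified reads are not independent molecules.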

Additional observations from a re-analysis of the deposited data

How the results depend on the processing

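No potassium channel member was called in 17 of the 18 alternatives; DESeq2 called 2 members, Kcne3 included (2.23, adjusted p = 0.00095), of 389 genes in all. The count over all genes was 5 as reported, 0 with the replicate block (1472 at an unadjusted p under 0.05), 9 by limma on log2(TPM + 0.1), 2 with sex read from Xist as a covariate, an alternative chosen after seeing the data, and 1 to 4 without each library in turn. Dnmt3a had 2.23 with the replicate block (adjusted p = 0.0679). The members' median log2 fold change of -0.03 was 0.0594 at a mean count of at least 50, 0.0192 and 0.0494 by limma on log2(TPM + 1) and log2(TPM + 0.1), 0.0278 with the alveolar type 2 score, and -0.0892 to 0.0473 without each library, where those without KO replicates 2 and 3 moved beyond the spread between libraries. Of the 15 named members 10 kept one sign in all alternatives that tested them. Deviations of same-numbered libraries from their group means had r = 0.275, -0.053 and -0.169, and those of unlike number ran from -0.284 to 0.346. Replicate 1 was the library read as female from Xist under both labels. With so few libraries these values cannot decide whether the replicate numbers pair them.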
